A study of Mus musculus with 6 samples.

Results

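The transcripts of 10 genes of the Nrf2 antioxidant response were examined in whole kidneys of mice that lost the transferrin receptor TfR1 in nephron progenitors. The genes were taken by symbol: Nfe2l2, Keap1, Nqo1, Gclc, Gclm, Txnrd1, Srxn1, Gsr, Txn1 and G6pdx. All 10 were among the 24422 genes of the count table, and all 10 were tested. Their median log2 fold change, TfR1 knockout over Control, was 0.63, against 0.01 over the 16509 genes tested. By DESeq2, Nqo1, Txnrd1 and Srxn1 rose by 2-fold or more, Txnrd1 only just at 2.02-fold. Gsr, G6pdx and Nfe2l2 rose by less than 2-fold, and Keap1, Txn1, Gclc and Gclm did not pass the test.

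Nrf2, encoded by Nfe2l2, is a transcription factor that is held at a low level by Keap1, an adaptor that presents Nrf2 to a Cul3 ubiquitin ligase for degradation. Oxidants and electrophiles modify cysteines of Keap1, Nrf2 then accumulates in the nucleus, pairs with a small Maf protein and binds antioxidant response elements in the control regions of its targets. Those targets make and recycle glutathione, run the thioredoxin system, supply NADPH and detoxify quinones, and in the kidney the pathway is known for its role in tubules under oxidative injury. Because Keap1 acts on the Nrf2 protein, the transcript of Nfe2l2 is not a measure of Nrf2 activity.

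The groups were 3 Control kidneys, labelled wild type, and 3 TfR1 knockout kidneys, labelled Tfr1f/f;SixCre, all from C57BL/6 mice at postnatal day 13 on a diet with 220 ppm iron. For the RNA sequencing the study calls the Control mice wild type littermates, and for other P13 kidneys of this model it uses the name WT for littermates with the floxed allele and no Cre, so that the sequenced Control mice may have carried that allele. Six2 drives Cre in the progenitors of the nephron epithelium, so that the collecting duct, stroma, vessels and blood cells keep the floxed receptor gene. The study also describes tubule cells that escaped deletion, scattered before birth and widespread by postnatal day 13. At that age it found them in most proximal tubules, and most surviving thick ascending limb tubules consisted of them entirely. Each library was poly-A RNA of a whole kidney, and in such bulk samples fewer cells of a type and less RNA per cell cannot be told apart.

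The libraries held 16591156 to 22898008 counted reads. The targeted gene did not check the labels, because only part of its exons is floxed and the table counts the whole gene. Tfrc had 5534, 6485 and 3667 normalized counts in Control and 6976, 4045 and 5898 in TfR1 knockout. Control 1 stood apart in the summed counts of the adrenal genes Cyp11a1, Cyp11b1 and Star, which were 14218 there and 147 to 1620 in the other 5 libraries. Control 3 had the lowest summed proximal tubule markers of the Control libraries, 62954 against 125658 and 126238. It was also lowest in thick ascending limb and distal tubule markers, 56569 against 104052 and 114953. The same held for collecting duct markers, 11335 against 20142 and 19920. The summed level of 10 macrophage markers was 2748 to 4485 in Control and 7992 to 10067 in TfR1 knockout, and 7 of the 10 rose. Thick ascending limb and distal tubule markers summed to 56569 to 114953 in Control and 13707 to 25845 in TfR1 knockout, and 6 of 6 fell. Collecting duct markers summed to 11335 to 20142 and 29522 to 62811, with 2 of 7 higher and 3 lower. The rise in that sum lay mainly in Aqp2, with means of 4579 in Control and 30696 in TfR1 knockout. Proximal tubule markers summed to 62954 to 126238 and 52513 to 76295, with 1 of 10 higher and 3 lower. Glomerulus, endothelium and stroma markers summed to 39376 to 55040 and 34837 to 46559, with 0 of 9 higher and 0 lower. By the same DESeq2 test, 7.74% of all genes tested were higher and 7.18% lower, so 1 of 10 higher is near that share. Hba-a1, Hba-a2, Hbb-b1 and Hbb-b2, the defining erythroid genes, were listed at 0 in every library. These shifts in cell type markers lie in the same comparison as every result on the 10 genes, and their part in it was not tested.

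By DESeq2, 6 of the 10 genes were higher in TfR1 knockout at an adjusted p under 0.05, where 7.74% of all genes tested were. At least 2-fold higher by the same test were 3 of the 10, where 4.41% of all genes tested were. By edgeR 2 of the 10 were called at 2-fold or more and by limma-voom 3, against 380 and 365 of 15308 genes. None of the 10 was lower by DESeq2, edgeR or limma-voom, against backgrounds of 7.18%, 2.80% and 2.98%, and none was lower at an unadjusted p under 0.05 by DESeq2, edgeR or limma-voom. The edgeR quasi-likelihood test and limma-voom each called 3 of the 10 higher, against backgrounds of 3.22% and 3.17%, and both called Nqo1, Txnrd1 and Srxn1. In 7 of the 10 every TfR1 knockout library lay above every Control library, against 16.9% of all genes. The 10 genes had been chosen with earlier results of these data known, so these counts are a description of them.

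**Figure D1:**
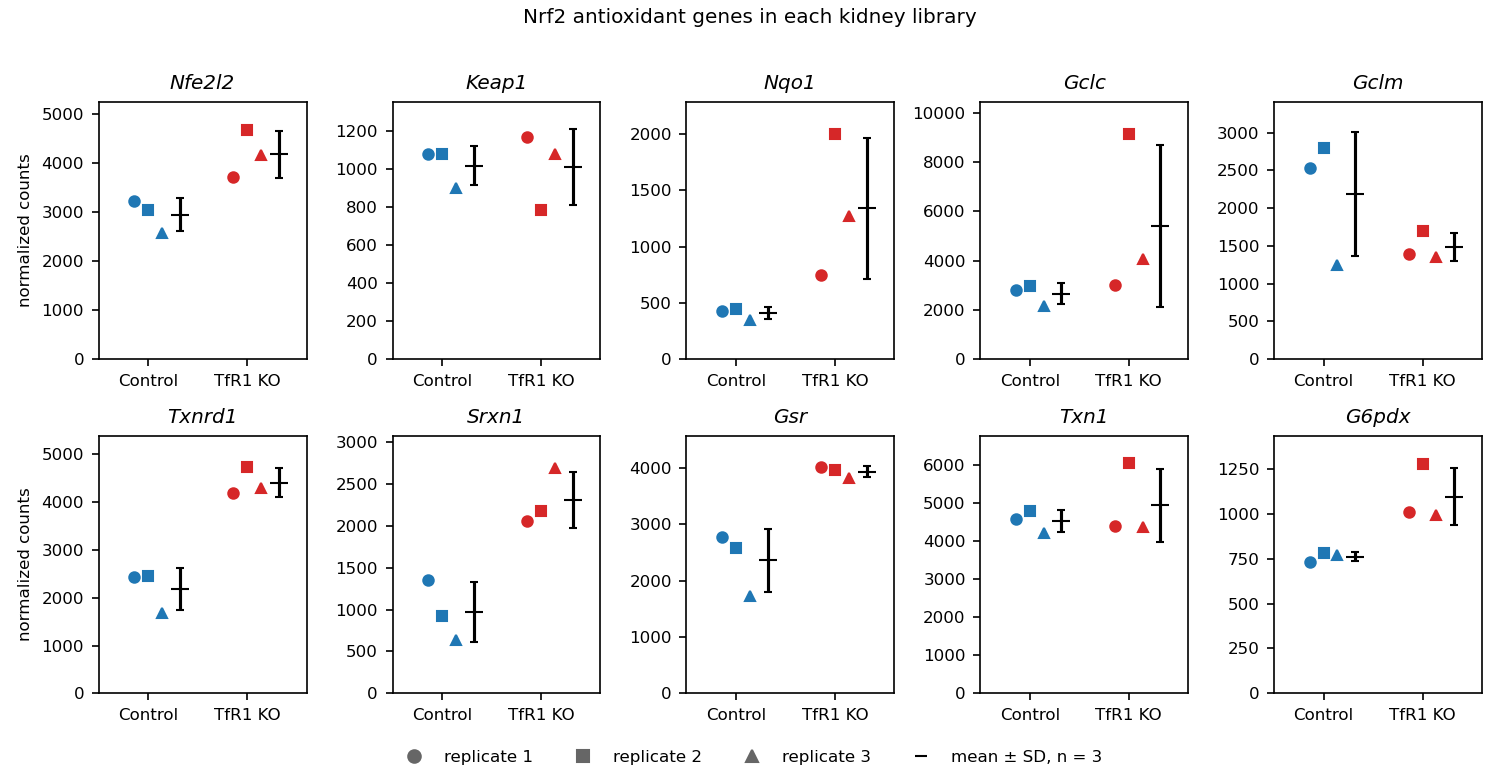
Normalized counts (y axes, linear, from 0) of the 10 Nrf2 antioxidant genes in the 3 Control and 3 TfR1 knockout kidneys, 1 panel per gene, with points for libraries, the shape of a point for its replicate number and bars for mean ± SD (n = 3). The groups do not overlap for Nfe2l2, Nqo1, Gclc, Txnrd1, Srxn1, Gsr and G6pdx, and they overlap for Keap1, Gclm and Txn1.

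The core of the antioxidant response element, the sequence through which Nrf2 is known to act, was looked for near the start sites. The matches show only where these letters occur, since binding was not measured and a match need not be a working element. It was searched as TGACNNNGC on both strands, from 250 bases before to 50 bases after each start in RefSeq (GRCm38.p6). It was found for 5 of the 8 members with a window, against 14% of 27025 genes with one, and Gclc and Gsr were not among the genes with a window. The members had been picked as Nrf2, Keap1 and classical targets of Nrf2, so this comparison is a description and not a test. Windows of Keap1, Nqo1 and Txn1 did not hold these letters, which says nothing about elements farther away. Each site is written 5′ to 3′ on the strand of the core, with the core in capitals and 10 bases on either side.
Nfe2l2: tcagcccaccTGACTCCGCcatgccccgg
Srxn1: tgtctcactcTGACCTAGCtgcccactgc
Gclm: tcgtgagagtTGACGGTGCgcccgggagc
Txnrd1: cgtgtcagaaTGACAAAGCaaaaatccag
G6pdx: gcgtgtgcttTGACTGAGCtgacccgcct

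Each of the 5 sequences matched a single place near its gene in mm9. The coordinates below cover the whole printed sequence, while the distances from a start are those of the core in capitals. The Nfe2l2 site was at chr2:75542942-75542970 on the minus strand, the strand of the gene, beginning 240 bases upstream of the start and inside an exon of the neighbouring transcript E030042O20Rik. The Srxn1 site was at chr2:151931278-151931306 on the minus strand, opposite to the gene and within its own exon, beginning 29 bases downstream of the start. The Gclm site, at chr3:121948331-121948359 on the minus strand and opposite to the gene, began 134 bases upstream and lay outside any exon. The Txnrd1 site was at chr10:82321849-82321877 on the minus strand, opposite to the gene, 92 bases upstream of 1 of its annotated starts and inside the gene body. The G6pdx site, at chrX:71674258-71674286 on the plus strand and opposite to the gene, began 57 bases upstream of the RefSeq start and overlapped a G6pdx exon of the GENCODE annotation. The AP-1 motif TGACTCA, which can overlap such a core, was in none of the 5 printed sites, and over the whole windows 10% of the 10 windows of the members held it, as did 5.2% of all windows. Of the 5 genes with a core, Nfe2l2, Srxn1, Txnrd1 and G6pdx were called higher and Gclm was not called, while Nqo1 was called higher with no core in its window.

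The first pair consists of the factor and its inhibitor. Nfe2l2 (chr2:75513570-75542698, minus strand) had 3213, 3046 and 2574 normalized counts in Control 1, 2 and 3, and 3711, 4666 and 4158 in TfR1 knockout 1, 2 and 3. Every TfR1 knockout library was above every Control library. The means were 2944 ± 332 and 4178 ± 478 (SD, n = 3), a log2 fold change of 0.50 (SE 0.18, 95% interval 0.16 to 0.85) with a DESeq2 adjusted p of 0.0324. The call was close to the threshold: the adjusted p was 0.0973 by edgeR and 0.0939 by limma-voom, and of the 6 DESeq2 fits that leave out 1 library only that without TfR1 knockout 1 kept it (adjusted p 0.0188, against 0.102 to 0.164 in the others).

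Keap1 (chr9:21034174-21043776, minus strand) had 1080, 1078 and 901 normalized counts in Control and 1170, 788 and 1079 in TfR1 knockout. The knockout libraries spanned the Control range on both sides, with TfR1 knockout 2 lowest of all 6. The means were 1020 ± 103 and 1013 ± 200 (SD, n = 3), and the log2 fold change of -0.01 (SE 0.22, DESeq2 adjusted p 0.985) had a 95% interval of -0.43 to 0.41. Its sign turned when Control 1 (0.03), Control 2 (0.03) or TfR1 knockout 2 (0.14) was left out. An opposite-strand gene, Gm16754, covers 11.4% of its exon bases.

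The ratio of Nfe2l2 to Keap1 counts was 2.97, 2.83 and 2.86 in Control and 3.17, 5.92 and 3.85 in TfR1 knockout. All 3 knockout ratios exceeded all 3 Control ratios, and the Control ratios were close together. On the log2 scale the means were 1.53 ± 0.04 and 2.06 ± 0.46 (SD, n = 3), a difference of 0.53 or 1.44-fold. The two-sided exact permutation p was 0.1, the smallest that 3 against 3 allows, and it was 0.1 after Benjamini-Hochberg adjustment over the 2 ratios tested. The size rested on TfR1 knockout 2, since without it the difference was 0.28.

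Nqo1, a quinone reductase and a classical reporter of Nrf2 activity, had the largest fold change of the 10. The gene (chr8:109912125-109927106, minus strand) had 431, 444 and 348 normalized counts in Control and 747, 1998 and 1276 in TfR1 knockout. The lowest knockout library was well above the highest Control library, and the knockout libraries differed among themselves more than the Control libraries did, with a coefficient of variation of 46.9% against 12.8%. The means were 407 ± 52.2 and 1340 ± 628 (SD, n = 3), a log2 fold change of 1.72 (SE 0.35, 95% interval 1.03 to 2.41) or 3.29-fold. The adjusted p was 3.76e-05 by DESeq2, 0.0308 by edgeR and 0.0442 by limma-voom. All 6 fits that leave out 1 library kept the call, with log2 fold changes from 1.32 without TfR1 knockout 2 to 2.00 without TfR1 knockout 1.

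In the thioredoxin system the reductase and the repair enzyme rose, and thioredoxin itself did not pass the test. Txnrd1 encodes the cytosolic thioredoxin reductase, which passes electrons from NADPH to thioredoxin. The gene (chr10:82296696-82360469, plus strand) had 2426, 2456 and 1677 normalized counts in Control and 4188, 4747 and 4295 in TfR1 knockout. The 3 knockout libraries were close together and all far above Control. The means were 2186 ± 441 and 4410 ± 297 (SD, n = 3), and the log2 fold change of 1.01 (SE 0.21, 95% interval 0.61 to 1.42) corresponded to 2.02-fold. The adjusted p was 3.39e-05 by DESeq2, 0.0235 by edgeR and 0.0229 by limma-voom. Without any 1 library the log2 fold change of Txnrd1 stayed between 0.85 and 1.10 and remained past the threshold. With TMM, upper-quartile and total-count size factors it was just under 2-fold, at 0.99, 0.97 and 0.91.

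Srxn1 encodes sulfiredoxin, which restores peroxiredoxins that have been overoxidized. The gene (chr2:151931252-151937112, plus strand) had 1350, 928 and 643 normalized counts in Control and 2059, 2174 and 2690 in TfR1 knockout. The groups were separate, with a wider relative spread in Control (coefficient of variation 36.5% against 14.6%), where Control 1 was the highest. The means were 973 ± 356 and 2308 ± 336 (SD, n = 3), a log2 fold change of 1.24 (SE 0.29, 95% interval 0.67 to 1.82) or 2.37-fold. The adjusted p was 0.000546 by DESeq2, 0.0415 by edgeR and 0.0363 by limma-voom. Across the 6 fits that leave out 1 library the log2 fold change of Srxn1 was 1.02 to 1.55, past the threshold in each.

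Txn1, which encodes thioredoxin, the small protein that Txnrd1 reduces, had 4598, 4792 and 4211 normalized counts in Control and 4391, 6054 and 4379 in TfR1 knockout. TfR1 knockout 1 and 3 lay within the Control range and TfR1 knockout 2 lay above it. The gene (chr4:57956245-57969283, minus strand) had means of 4533 ± 296 and 4942 ± 964 (SD, n = 3). The log2 fold change of 0.12 (SE 0.19, DESeq2 adjusted p 0.732) had a 95% interval of -0.26 to 0.51, and it was -0.04 without TfR1 knockout 2.

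The 2 subunits of glutamate-cysteine ligase, the rate-limiting enzyme of glutathione synthesis, had fold changes of opposite sign, and neither passed the test. Gclc encodes the catalytic subunit (chr9:77602342-77642292, plus strand) and had 2806, 2987 and 2171 normalized counts in Control against 3010, 9153 and 4054 in TfR1 knockout. The groups did not overlap, but TfR1 knockout 1 was just above the highest Control library, and TfR1 knockout 2 was far above all others. The means were 2655 ± 428 and 5406 ± 3287 (SD, n = 3), a log2 fold change of 1.03 (SE 0.40, 95% interval 0.25 to 1.80). The adjusted p was 0.0594 by DESeq2, 0.158 by edgeR and 0.187 by limma-voom. A single library decided the value: the log2 fold change was 0.42 without TfR1 knockout 2 (DESeq2 adjusted p 0.308) and 1.31 without TfR1 knockout 1 (DESeq2 adjusted p 0.00329).

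Gclm encodes the modifier subunit, which raises the activity of the catalytic subunit. The gene (chr3:121948475-121972902, plus strand) had 2526, 2790 and 1253 normalized counts in Control and 1399, 1693 and 1354 in TfR1 knockout. Control 1 and 2 were above every knockout library and Control 3 was below every one. The means were 2190 ± 822 and 1482 ± 184 (SD, n = 3), and the log2 fold change of -0.56 (SE 0.31, DESeq2 adjusted p 0.23) had a 95% interval of -1.18 to 0.05. Without Control 3 the log2 fold change was -0.85 with a DESeq2 adjusted p of 0.00018, while no other fit that leaves out 1 library passed the threshold. An opposite-strand gene, Gm17494, covers 5.76% of the exon bases.

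The ratio of Gclc to Gclm counts was 1.11, 1.07 and 1.73 in Control and 2.15, 5.41 and 3 in TfR1 knockout. Every knockout ratio exceeded every Control ratio. On the log2 scale the means were 0.35 ± 0.39 and 1.71 ± 0.67 (SD, n = 3), a difference of 1.36 or 2.57-fold. The two-sided exact permutation p was 0.1, again the smallest possible and 0.1 after adjustment over the 2 ratios. Leaving out 1 library gave differences from 1.00 (without TfR1 knockout 2) to 1.66 (without TfR1 knockout 1).

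**Figure D2:**
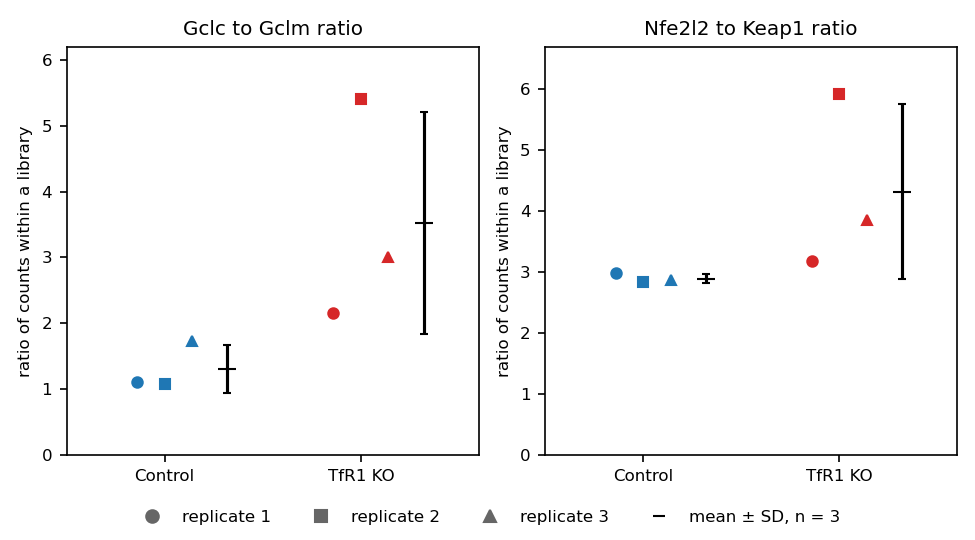
Ratios of normalized counts (y axes, linear, from 0) in the 3 Control and 3 TfR1 knockout kidneys, with the catalytic over the modifier subunit of glutamate-cysteine ligase (Gclc over Gclm) in 1 panel and Nfe2l2 over Keap1 in the other. Points are libraries, their shapes mark the replicate number and bars are mean ± SD (n = 3), the groups do not overlap in either panel, and TfR1 knockout 2 is the highest point in both (5.41 and 5.92).

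Gsr and G6pdx serve the recycling of glutathione. Gsr encodes glutathione reductase, which regenerates reduced glutathione with NADPH. The gene (chr8:34762995-34808635, plus strand) had 2774, 2573 and 1730 normalized counts in Control and 4018, 3955 and 3815 in TfR1 knockout. The knockout libraries were nearly equal, with a coefficient of variation of 2.65% against 23.5% in Control, and all were above Control. The means were 2359 ± 554 and 3929 ± 104 (SD, n = 3), a log2 fold change of 0.74 (SE 0.22, 95% interval 0.30 to 1.17) or 1.67-fold. The adjusted p was 0.00957 by DESeq2, 0.0672 by edgeR and 0.0629 by limma-voom. The DESeq2 call was lost without TfR1 knockout 3 (adjusted p 0.0587) and kept in the other 5 such fits.

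G6pdx encodes glucose-6-phosphate dehydrogenase, the entry enzyme of the pentose phosphate pathway and a main source of NADPH. The gene (chrX:71654822-71674533, minus strand) had 731, 779 and 773 normalized counts in Control and 1009, 1276 and 995 in TfR1 knockout. Its Control libraries had the lowest coefficient of variation of the 10 genes, 3.4%, and every knockout library was above them. The means were 761 ± 25.9 and 1093 ± 158 (SD, n = 3), a log2 fold change of 0.52 (SE 0.18, 95% interval 0.18 to 0.87) or 1.44-fold. The adjusted p was 0.0259 by DESeq2, 0.0757 by edgeR and 0.0783 by limma-voom. Only the fit without TfR1 knockout 1 kept the call when 1 library was left out (DESeq2 adjusted p 0.0316, against 0.062 to 0.232). Ikbkg, on the opposite strand, covers 13.6% of the exon bases of G6pdx, and since the strand setting of the counting is not given in the sources used here, reads of the shared bases cannot be told apart. Ikbkg had 1118 ± 56.2 normalized counts in Control and 1607 ± 368 in TfR1 knockout (SD, n = 3), with a log2 fold change of 0.52 (SE 0.22, DESeq2 adjusted p 0.0819).

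**Figure D3:**
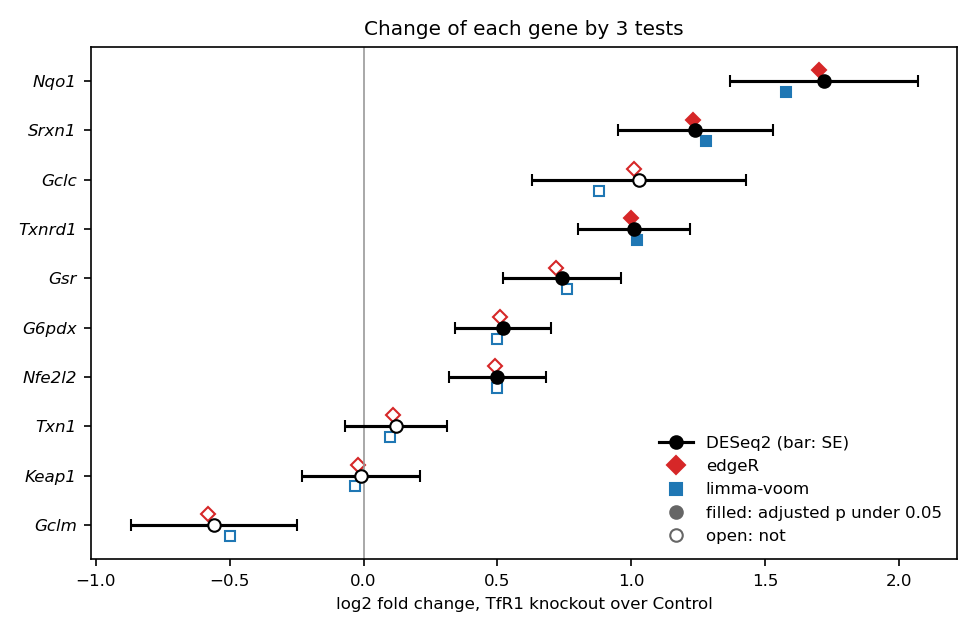
Log2 fold changes of the 10 Nrf2 antioxidant genes, TfR1 knockout over Control (x axis), by DESeq2, edgeR and limma-voom. Bars are ± SE from DESeq2, and points are filled for an adjusted p under 0.05 by that test. By DESeq2 the largest is Nqo1 at 1.72, and the bar of Gclc is the widest (SE 0.40). The 95% intervals, which are not drawn, include 0 for Keap1, Gclm and Txn1.

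The order of the libraries within a group was shared by many of the 10. Control 3 was the lowest Control library for 9 of the 10, G6pdx being the exception, and TfR1 knockout 2 was the highest knockout library for 7 of the 10. Control 3 also had the lowest Control sums of proximal tubule, of thick ascending limb and distal tubule and of collecting duct markers. Its sums of macrophage markers (4485) and of glomerulus, endothelium and stroma markers (55040) were the highest of Control. TfR1 knockout 2 had the highest collecting duct sum among knockout libraries, 62811 against 29522 and 35143, with 50720 from Aqp2 alone. Aqp3 and Slc26a4 were also highest there, while Slc4a1 and Scnn1g were lowest. The thick ascending limb and distal tubule sum of TfR1 knockout 2 was the highest too, 25845 against 18177 and 13707. Whether these marker levels had a part in the order of the 10 genes was not tested. Without Control 3, DESeq2 called 4 of the 10 higher and Gclm lower, and without TfR1 knockout 2 it called 4 higher. The count was 4 without Control 1, 4 without Control 2, 7 without TfR1 knockout 1 and 3 without TfR1 knockout 3. Over all genes, the higher calls were 664, 705 and 1234 without Control 1, 2 and 3. They were 1531, 904 and 853 without TfR1 knockout 1, 2 and 3, against 1277 on all libraries. In each fit the count of the 10 moved in the same direction as that of all genes. Nqo1, Txnrd1 and Srxn1 were called higher in every fit run, which comprised DESeq2 on all libraries and its 15 alternatives.

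**Figure D4:**
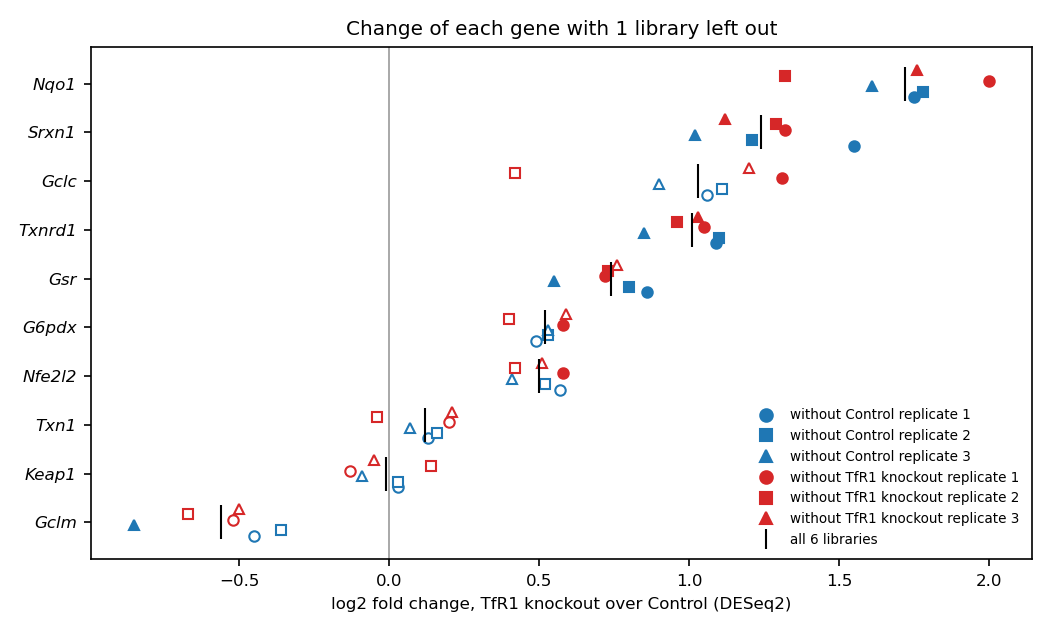
Log2 fold changes of the 10 Nrf2 antioxidant genes (TfR1 knockout over Control, DESeq2) on all 6 libraries (vertical bars) and with each library left out in turn (points), filled for an adjusted p under 0.05. Nqo1, Txnrd1 and Srxn1 are filled throughout, Gclc ranges from 0.42 to 1.31, and Gclm is filled only without Control 3, at -0.85.

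Levels of different genes were set side by side as RPKM, counted reads divided by exon length and library total. In Control, Txn1 was the most abundant of the 10 at 231 ± 6.03 (SD, n = 3), above all others beyond their spread. Gsr at 45.6 ± 9.4, Nfe2l2 at 41.5 ± 3.44 and Gclc at 41.4 ± 5.16 followed, and neighbours in this order overlapped. Every Control library of Gclc was above every one of Txnrd1, the next below. Under that gap were Txnrd1 at 29 ± 4.88, Gclm at 22.6 ± 7.83, Srxn1 at 18.4 ± 6.4, Nqo1 at 14 ± 1.28, G6pdx at 13.2 ± 0.746 and Keap1 at 12.2 ± 0.801, each overlapping the next.

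In TfR1 knockout, Txn1 stayed first at 232 ± 22.5 and Keap1 last at 11.4 ± 3.09 on the same scale. Gclc was at 75.9 ± 38.7, Gsr at 71.1 ± 6.09, Nfe2l2 at 54.5 ± 3.59, Txnrd1 at 54.5 ± 1.88, Nqo1 at 42 ± 16.3, Srxn1 at 40.9 ± 8.41, G6pdx at 17.5 ± 0.844 and Gclm at 14.3 ± 0.412. The knockout libraries of neighbours did not overlap below Txn1, below Gsr, below Srxn1, below G6pdx and below Gclm, and overlapped elsewhere in this order. Gclm, rank 6 in Control, was thus at rank 9, while the order of Nqo1 and Srxn1 lay within their spread.

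Related genes were examined beside the 10 in 5 lists. Among 16 regulators of Nrf2, DESeq2 called 3 higher and none lower, where 7.74% and 7.18% of all genes tested were, with a median log2 fold change of 0.41, and 2 of the 16 were lower at an unadjusted p under 0.05. The 3 were the small Maf genes Maff and Mafk, whose proteins pair with Nrf2, and the Nrf2 relative Nfe2l3. Maff had 97.3, 112 and 111 normalized counts in Control and 432, 851 and 329 in TfR1 knockout, a log2 fold change of 2.33 (SE 0.37) with an adjusted p of 3.37e-08 by DESeq2 and 0.0159 by edgeR. All 3 knockout libraries were far above Control. Nfe2l3 had a log2 fold change of 1.54 (SE 0.37, adjusted p 0.000729 by DESeq2 and 0.0499 by edgeR). Mafk had one of 1.19 (SE 0.37, adjusted p 0.0132 by DESeq2 and 0.0909 by edgeR). The third small Maf gene, Mafg, was at 0.60 (SE 0.30, DESeq2 adjusted p 0.168). Bach1, a repressor that competes with Nrf2 for the same elements, was at 0.55 (SE 0.27, DESeq2 adjusted p 0.174), and it passed without TfR1 knockout 1 (0.74, DESeq2 adjusted p 0.0237). Sqstm1, whose protein binds Keap1, was at 0.41 (SE 0.20, DESeq2 adjusted p 0.159).

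Of 24 other Nrf2 targets, 23 were tested, and DESeq2 called 7 higher and none lower, against 7.74% and 7.18% of all genes, with 1 lower at an unadjusted p under 0.05. The median log2 fold change was 0.56. The carbonyl reductase gene Cbr3 had 129, 104 and 159 normalized counts in Control and 1546, 4428 and 3463 in TfR1 knockout, a log2 fold change of 4.59 (SE 0.38) or 24.1-fold with an adjusted p of 3.17e-30 by DESeq2 and 0.00314 by edgeR. The lowest knockout library was far above the highest Control library. Gstm1, a glutathione S-transferase, had 2794, 3326 and 2372 normalized counts in Control and 9196, 15576 and 9551 in TfR1 knockout (log2 fold change 2.01, SE 0.27, adjusted p 6.84e-12 by DESeq2 and 0.00809 by edgeR). Gstm1 belongs to a family of near-identical genes, so the assignment of its reads is uncertain. Slc7a11, the cystine carrier subunit that feeds glutathione synthesis, had 16.5, 16.4 and 26.9 normalized counts in Control and 49.7, 175 and 79.5 in TfR1 knockout, a log2 fold change of 2.35 (SE 0.55) with an adjusted p of 0.00044 by DESeq2, 0.0465 by edgeR and 0.0621 by limma-voom. Osgin1 was at 1.50 (SE 0.38, adjusted p 0.0017 by DESeq2 and 0.0592 by edgeR). The exporter gene Abcc4 was at 0.77 (SE 0.20, adjusted p 0.00222 by DESeq2 and 0.0397 by edgeR).

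Hmox1, heme oxygenase 1 and a target that Bach1 also represses, did not pass the test. It had 463, 434 and 980 normalized counts in Control and 782, 659 and 918 in TfR1 knockout, with Control 3 the highest of all 6 libraries. The log2 fold change of 0.33 (SE 0.35) had a DESeq2 adjusted p of 0.58, and without Control 3 it was 0.81 with a DESeq2 adjusted p of 0.0044. Control 3 was thus the lowest Control library for 9 of the 10 Nrf2 antioxidant genes and the highest for Hmox1.

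Of 22 further genes of the glutathione and thioredoxin systems, DESeq2 called 5 higher and 3 lower, against 7.74% and 7.18% of all genes, with a median log2 fold change of 0.25. By edgeR 3 were higher and 0 lower and by limma-voom 2 and 0, with 5 lower at an unadjusted p under 0.05 by each of the 3 tools, and DESeq2 called 0 lower without TfR1 knockout 3. Slc7a11, described above, was 1 of those higher. Chac1, which degrades glutathione, had 19, 20 and 25.8 normalized counts in Control and 172, 79.3 and 173 in TfR1 knockout (log2 fold change 2.72, SE 0.43, DESeq2 adjusted p 1.33e-08). Sesn2, a stress-responsive sestrin, had a log2 fold change of 1.12 (SE 0.24, adjusted p 0.000107 by DESeq2 and 0.0256 by edgeR). Txnrd3, a thioredoxin and glutathione reductase, was at 0.58 (SE 0.16) and Oplah, of the glutathione cycle, at 0.61 (SE 0.18), with DESeq2 adjusted p of 0.00356 and 0.00981 and edgeR adjusted p of 0.0553 and 0.0569. The 3 genes called lower encode peroxiredoxins, a family of peroxidases. Prdx4 had 1027, 1129 and 1755 normalized counts in Control and 624, 774 and 667 in TfR1 knockout (log2 fold change -0.92, SE 0.26, adjusted p 0.00505 by DESeq2 and 0.0523 by edgeR). Prdx5 was at -0.63 (SE 0.20, adjusted p 0.0196 by DESeq2 and 0.0984 by edgeR). Prdx2 was at -0.39 (SE 0.14, adjusted p 0.0452 by DESeq2 and 0.135 by edgeR). The peroxiredoxin genes Prdx1, Prdx3 and Prdx6 of the same list were not called. Their log2 fold changes were above 0, at 0.14 (SE 0.17), 0.26 (SE 0.20) and 0.30 (SE 0.24). The groups overlapped for each, with DESeq2 adjusted p of 0.637, 0.423 and 0.445.

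Among 13 genes of NADPH supply, DESeq2 called 3 higher and none lower (1 lower at an unadjusted p under 0.05), against 7.74% and 7.18% of all genes, and the median log2 fold change was 0.07. By edgeR and by limma-voom 1 of the 13 was higher. Pgd, the dehydrogenase after G6pdx in the pentose phosphate pathway, had 2097, 2220 and 1735 normalized counts in Control and 2968, 3746 and 3393 in TfR1 knockout (log2 fold change 0.74, SE 0.18, adjusted p 0.000972 by DESeq2 and 0.0365 by edgeR). Its knockout libraries were all above Control, as those of G6pdx were. H6pd, the related enzyme of the endoplasmic reticulum, was at 0.76 (SE 0.27, adjusted p 0.0345 by DESeq2 and 0.11 by edgeR). Idh1, the cytosolic isocitrate dehydrogenase, was at 0.61 (SE 0.20, adjusted p 0.0197 by DESeq2 and 0.1 by edgeR). Of 7 other antioxidant enzymes DESeq2 called 1 higher and none lower, also at an unadjusted p under 0.05, with a median log2 fold change of 0.23, and against 7.74% of all genes 1 of 7 is near the background. That gene was Gpx3, the secreted glutathione peroxidase made in the proximal tubule, at 1.06 (SE 0.34, adjusted p 0.0173 by DESeq2 and 0.177 by edgeR). By edgeR and limma-voom 0 of the 7 passed, with 1 higher at an unadjusted p under 0.05 in each.

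**Figure D5:**
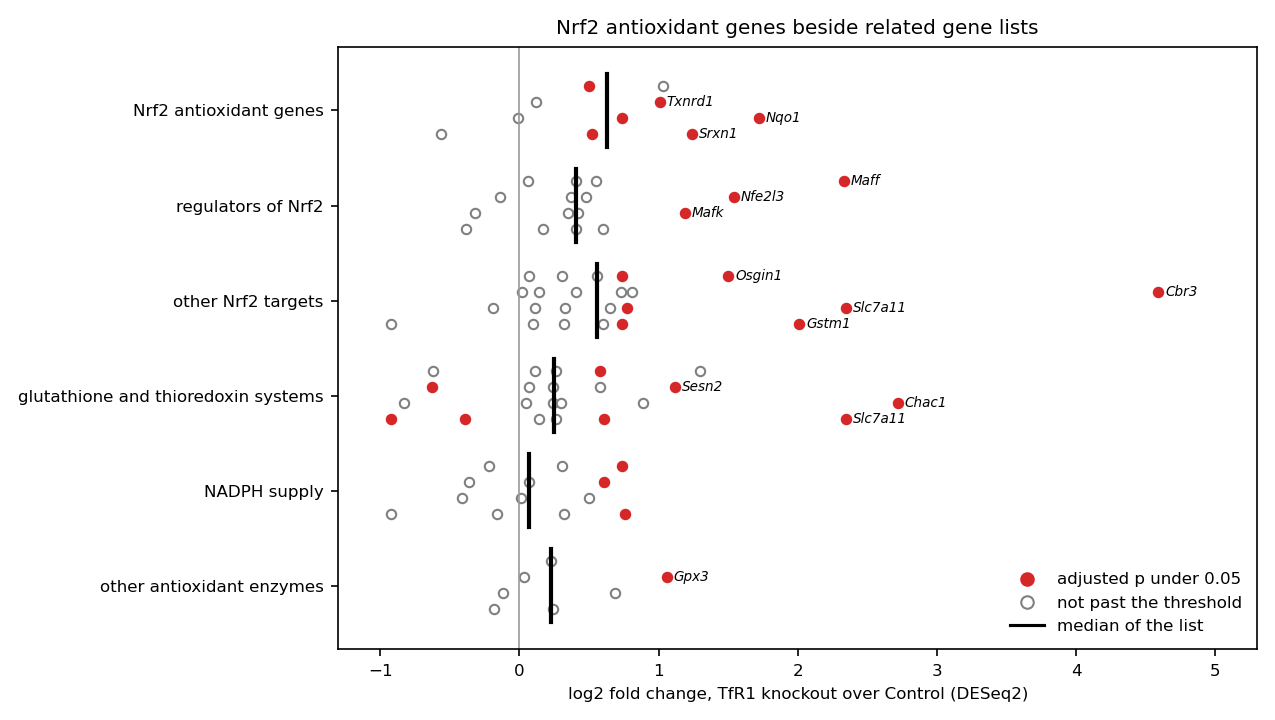
Log2 fold changes (TfR1 knockout over Control, DESeq2, x axis) of the 10 Nrf2 antioxidant genes and of 5 related gene lists, with filled points for an adjusted p under 0.05 and a vertical bar for the median of each list. Medians run from 0.63 for the 10 genes to 0.07 for NADPH supply, and Cbr3 at 4.59 is the point farthest to the right.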

How the data were processed

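Total RNA was extracted from whole kidneys with TRIzol, and poly-A RNA was made into TruSeq libraries and sequenced single-end on a HiSeq2000. The authors called bases with CASAVA 1.8.2, trimmed reads with Trimmomatic, aligned them to mm9 with TopHat2 2.0.11, kept uniquely mapped reads and counted them per gene with HTSeq. The deposited values are raw counts per gene, and the annotation and strand setting are not given in the sources used here.

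Here the counts were tested with DESeq2 1.42.0 (R 4.3.3), the tool named in the study's methods, with median-ratio size factors, the Wald test, outlier and independent filtering, and Benjamini-Hochberg adjustment over all 16509 genes with an adjusted p; a call was an adjusted p under 0.05. Of the genes listed, 19985 had a read. Normalized counts are counts divided by size factors. The edgeR 4.0.16 quasi-likelihood test, limma-voom (limma 3.58.1), other size factors, a filter of 10 counts in at least 3 libraries, no independent filtering, no outlier filter, a replicate block and leaving out each library were alternatives. The fits were tested on simulated data. Ratios were compared with a two-sided exact permutation test on log2 of normalized counts.

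Groups came from the sample titles. The study describes the sequenced samples as separate mice with littermate controls; which mice shared a litter is not given in the sources used here. No 2 libraries of a group agreed within sampling noise. The members and lists were chosen with earlier results of these data known. The genes named were all 10 members, up to 5 called genes per direction of each list whose mean normalized count reached 100, and Hmox1, Slc7a11, Bach1, Mafg, Sqstm1 and Tfrc. Chac1, under that mean, was named after its values were seen. Prdx1, Prdx3, Prdx6, the overlapping gene Ikbkg and single cell type markers were also named outside this rule. Of these lists' genes, 1 regulator, 7 targets, 2 glutathione genes and 4 of NADPH supply are in another list. Positions are mm9 by symbol from GENCODE vM1, and start-site windows are from RefSeq (GRCm38.p6), each site placed in mm9 by an exact match of its sequence.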

Additional observations from a re-analysis of the deposited data

How the results depend on the processing

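Of 16509 genes, 1277 were called higher and 1186 lower, against 493 and 428 by edgeR, 485 and 456 by limma-voom, and ranges of 664 to 1531 and 575 to 1674 with 1 library left out. Total-count size factors shifted the median of all genes from 0.01 to -0.10 and gave 996 higher and 1407 lower. Among the 10 members 6 were higher, 3 by edgeR, 3 by limma-voom and 3 to 7 with 1 library left out, and 0 to 1 were then lower. Higher calls were 2 to 5 for regulators, 3 to 7 for the glutathione and thioredoxin systems, 1 to 3 for NADPH supply and 0 to 1 for other antioxidant enzymes with 1 library left out. They were 3, 1 and 0 in the last 3 lists by edgeR and 2, 1 and 0 by limma-voom. Lower calls with 1 library left out were 0 to 1 for other targets, 0 to 4 for the glutathione and thioredoxin systems (0 by edgeR and 0 by limma-voom), 0 to 2 for NADPH supply and 0 to 1 for other antioxidant enzymes. Leaving out Control 1 gave 664 higher and 575 lower genes, and 3 higher and 1 lower in the glutathione and thioredoxin systems. Control 2 left out gave 705 and 627 genes, and TfR1 knockout 3 left out gave 659 lower genes and 0 lower in those systems. Total-count size factors gave 1 lower regulator, 1 lower target, 5 lower glutathione and thioredoxin genes and 1 lower NADPH gene, and upper-quartile size factors gave 1 lower target and 1 lower NADPH gene. With 1 library left out the log2 fold change of Keap1 ran from -0.13 to 0.14 (0.03, 0.03 and 0.14 without Control 1, Control 2 and TfR1 knockout 2), that of Txn1 from -0.04 to 0.21 (-0.04 without TfR1 knockout 2) and that of Tfrc from -0.09 to 0.30 (-0.09 without Control 3 and -0.07 without TfR1 knockout 1). The cause of these differences was not tested.

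Correlations of deviations from the group means between same-numbered libraries were -0.0199, 0.0482 and 0.124 on the log2 scale. There 3 of the 6 libraries correlated best with their own number. On a variance-stabilized scale the correlations were 0.0358, 0.0196 and 0.191, and 4 of the 6 libraries did so. The numbers were not taken as pairs. A fit with a replicate block called 1085 genes higher and 1087 lower. It called 5 members higher, adding Gclc (adjusted p 0.0133 by DESeq2) and losing Nfe2l2 (0.0933) and G6pdx (0.115), and gave 2 higher other antioxidant enzymes, 1 lower target and 1 lower NADPH gene.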
